A study of Mus musculus with 24 samples.

Results

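Immune gene expression in the terminal ileum, where the small intestine ends, was compared between mice given a single early course of the macrolide antibiotic tylosin (PAT1, pulsed antibiotic treatment) and mice given no antibiotic (Control). The mice were chosen by the treatment label, which gave 7 PAT1 and 7 Control mice, or 14 of the 24 mice of the series, and every one of the 547 genes of the table was compared. All mice were C57BL/6 and were sampled at week 7, with 4 males and 3 females in each group. PAT1 pups were exposed to tylosin while nursing, through the milk of the treated dam, and received no later course, whereas Control animals drank non-acidified water. The remaining 10 mice (PAT3) received the same early course and further courses, and they were left out of the comparison except where named. Litters were assigned to a treatment as a whole and mice were housed by sex and treatment, so litter and cage cannot be told apart from the antibiotic, and p-values treat the mice as independent animals.

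The ileal wall holds absorptive and secretory epithelium, lymphocytes inside that epithelium, T cells, myeloid cells and IgA plasma cells in the lamina propria, and patches of lymphoid follicles rich in B cells. Commensal bacteria are known to shape each of these. They induce interferon gamma and IL-17 in lymphocytes, epithelial MHC class II under the control of the transactivator CIITA, the epithelial oxidases and nitric oxide synthase, and the receptor that carries IgA into the lumen.

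The NanoString nCounter mouse immunology panel counts transcripts directly, without amplification, by barcoded probes that hybridize to each of them. Values are log2 normalized counts, so that a difference of 1 is a 2-fold change, and they compare the same gene between mice, not different genes with each other. Counts recovered from the values totalled 445534 to 750256 in Control and 171671 to 782392 in PAT1 mice. The log2 total differed by -0.46 (two-sided exact permutation p = 0.150), with PAT1 replicates 1 and 3 the shallowest. The median log2 value of a mouse over all genes was on average 0.14 lower in PAT1 (exact permutation p = 0.107). Changes below are relative to the deposited scaling. Centring each mouse on its median, an alternative used below, raised every log2 fold change by 0.14, which makes falls smaller and rises larger. A gene is termed called where its adjusted p was under 0.05 by limma, a linear model fitted across all genes. In bulk tissue, fewer cells of a type and less RNA per cell cannot be told apart.

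The labelled tissue was first checked against markers of its cell types. The mean of 5 enterocyte markers lay at 12.05 to 13.33 (median 12.99) in Control and 12.18 to 13.65 (median 13.30) in PAT1, and that of Itln1, a secretory cell product, at 14.57 to 16.31 and 15.97 to 16.57. Both were detected in every mouse, and the groups overlapped in each. The mean of 4 T cell markers (Cd3d, Cd3e, Cd4 and Cd8a) lay at 6.98 to 7.27 (median 7.19) in Control and 6.33 to 6.92 (median 6.34) in PAT1. These ranges did not overlap on the deposited scaling, but the nearest mice, Control replicate 4 (6.98) and PAT1 replicate 7 (6.92), were close. The separation was not tested after centring. The mean of 4 myeloid markers spanned 7.84 to 8.53 and 7.39 to 8.12. B cell markers varied most, with a mean over 6 genes of 4.08 to 6.18 (median 4.32) in Control and 3.66 to 8.47 (median 4.61) in PAT1. PAT1 replicates 2, 4 and 7 (7.15, 6.77 and 8.47) and Control replicate 1 (6.18) were rich in B cell markers, and the other PAT1 mice lay within or below the Control range. None of the B cell and follicle markers was called. Values with and without these 4 mice are given below for some genes only.

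**Figure D1:**
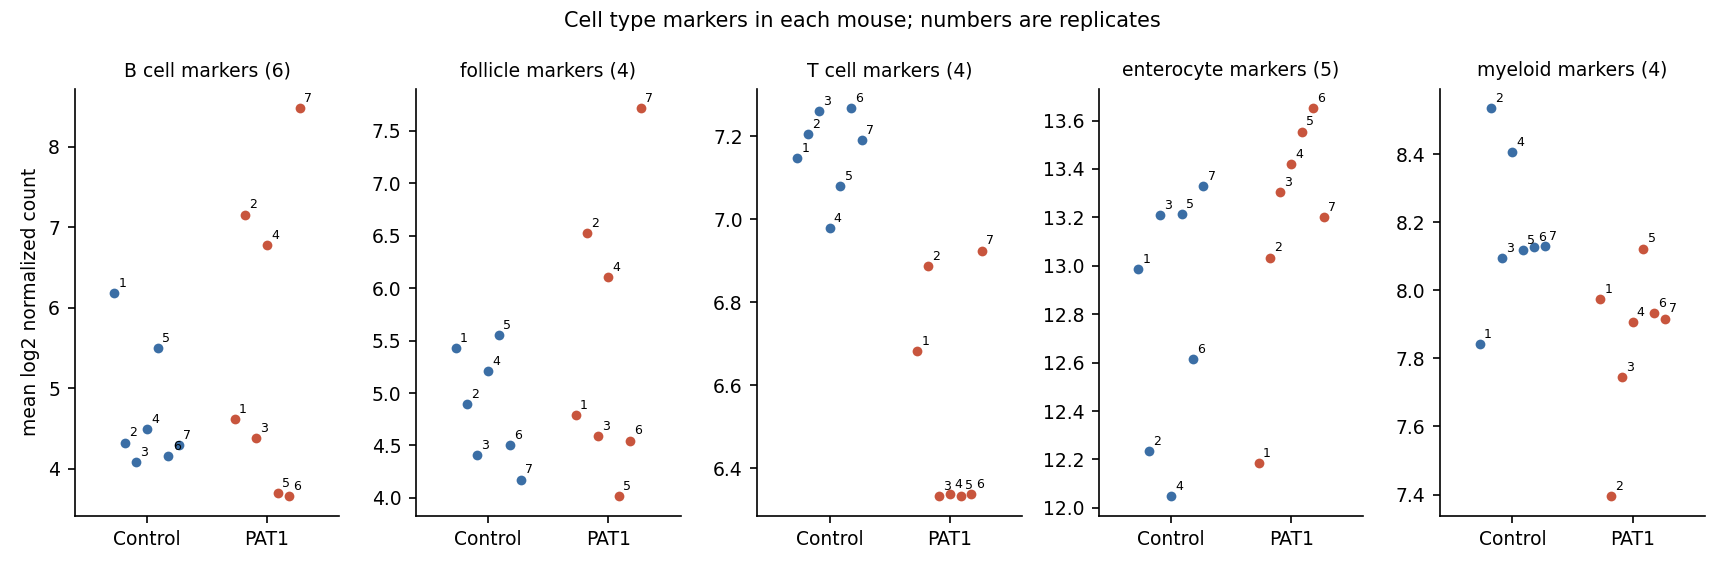
Mean log2 normalized count of each set of cell type markers (vertical axis) in 7 Control and 7 PAT1 mice, 1 point a mouse with its replicate number. PAT1 replicates 2, 4 and 7 stand above all other mice for B cell markers. On the deposited scaling T cell markers are lower in every PAT1 mouse than in any Control mouse, by a narrow margin.

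Compared with Control, 101 of 547 genes (18.5%) were called in PAT1. Of these 40 (7.31%) were higher and 61 (11.2%) were lower, with log2 fold changes from -2.43 for Nos2 to 3.02 for Bst1. The median called fall was -0.90 and the median called rise 0.72, whereas the median over all genes was 0.01. After centring each mouse on its median, 57 genes were higher and 46 lower. At least 2-fold changes numbered 24 falls and 10 rises. In 87 of the 101 genes all 7 PAT1 mice lay on the same side of the Control mean. The values of 34 genes (6.22%) did not overlap between the groups at all, 21 of them lower and 13 higher in PAT1, and all 34 were called. Without the 4 mice rich in B cell markers 101 genes were called, 78 of them among those above, and without the 2 shallowest PAT1 mice 116 were called, 90 of them among those above. Falls that lost their call without the 4 mice were those of Ccr10, Ikzf2, Il1b, Il7, Mbl2, Psmb9, Spn, Tbx21, Tlr4 and Tnfrsf9. Rises that lost it were those of Btnl1, Ccl6, Cd82, Cd83, Cfb, Fcamr, Gm10499, Gpr183, Lta, Ptpn6, Smad5, Tgfbi and Traf2. The sign was the same under all 31 alternative analyses for each of the 101 genes, and 59 kept their call under the 29 that used both sexes.

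**Figure D2:**
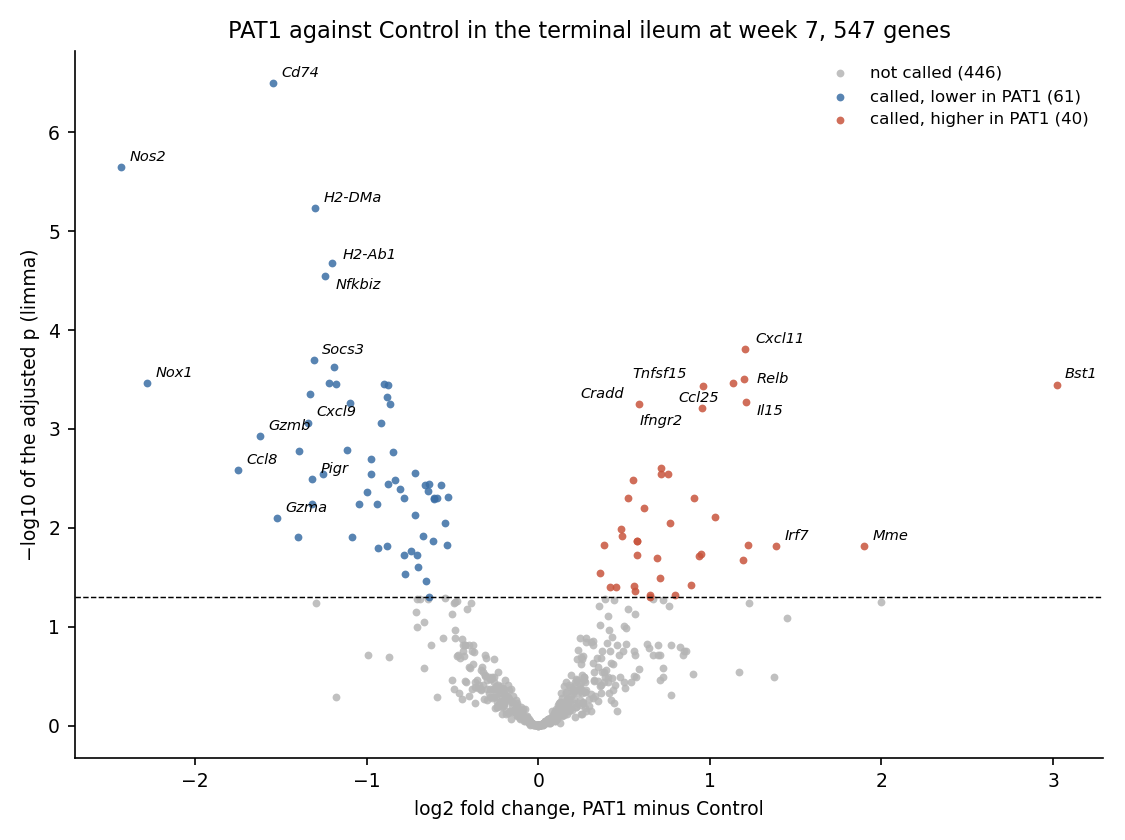
Log2 fold change of each gene in PAT1 minus Control (horizontal axis) against the negative log10 of its adjusted p by limma (vertical axis), with the threshold dashed. The 61 lower and 40 higher genes lie above the line, with Cd74, Nos2 and H2-DMa highest on the left and Bst1 far to the right.

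Most measured genes of MHC class II presentation fell. Class II molecules show peptides to CD4 T cells, and in the gut they are made by dendritic cells, B cells and, under interferon gamma, by enterocytes. Of the 10 measured genes of this list 6 were called lower and 1 higher, against 11.2% lower and 7.31% higher over the panel, and the list median was -1.03. Cd74, the invariant chain that fills the groove of new class II molecules, ranged from 14.69 to 15.49 (median 15.05) in Control and from 13.04 to 13.98 (median 13.56) in PAT1. No PAT1 mouse reached the lowest Control mouse. The log2 fold change was -1.54 (SE 0.16, adjusted p = 3.18e-07), which is a 2.92-fold fall. Under quantile normalization it was -0.73 (adjusted p = 0.0548).

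H2-Aa, the alpha chain of the I-A molecule, ranged from 13.83 to 14.83 (median 13.97) in Control and from 12.18 to 13.42 (median 13.09) in PAT1. Its partner, the beta chain H2-Ab1, ranged from 13.35 to 14.17 (median 13.55) and from 11.87 to 12.80 (median 12.52). The groups did not overlap for either chain, and the log2 fold changes were close, at -1.19 (SE 0.20, adjusted p = 0.000238) for H2-Aa and -1.20 (SE 0.17, adjusted p = 2.09e-05) for H2-Ab1. H2-Eb1, the beta chain of I-E, lay at 12.24 to 12.57 (median 12.28) in Control and 10.97 to 11.70 (median 11.52) in PAT1, again with no overlap. It fell by 0.88 on the log2 scale (SE 0.16, adjusted p = 0.000356). H2-DMa, a chain of the DM molecule that exchanges the invariant chain remnant for peptide, lay at 10.45 to 11.15 (median 10.64) and 8.91 to 10.01 (median 9.45). Its log2 fold change was -1.30 (SE 0.17, adjusted p = 5.88e-06), and every PAT1 mouse was below every Control mouse.

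Ciita, the transactivator on which transcription of these genes depends, ranged from 8.45 to 9.22 (median 8.80) in Control and from 6.93 to 8.63 (median 7.52) in PAT1. A single PAT1 mouse, replicate 7, lay inside the Control range, and it was also the mouse richest in B cell markers. The log2 fold change of Ciita was -1.22 (SE 0.22, adjusted p = 0.000344). The 6 falls were called again without the 4 mice rich in B cell markers, with a list median of -1.09. The B cell genes of the list were not called. H2-Ob, a chain of the DM inhibitor DO, had a log2 fold change of 1.23 (adjusted p = 0.0577), and H2-DMb2, a second DM beta chain, of 0.84 (adjusted p = 0.194). Their highest values, 9.04 and 9.62, were both those of PAT1 replicate 7, and without the 4 mice rich in B cell markers their log2 fold changes were 0.31 and -0.11. The exception among the called genes was Ctss, the protease that cleaves the invariant chain, which rose by 0.57 (SE 0.17, adjusted p = 0.0189; 0.0536 by the methods' test, the study's analysis of variance with Tukey's comparison).

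Promoter windows of genes that fell together are shown because class II promoters are known to carry a Y box, whose core is CCAAT, and interferon-responsive promoters a repeat of GAAA, searched as 2 copies with any 2 bases between them. Each runs from 250 bases before to 50 bases after the RefSeq transcript start, 5′ to 3′ on the coding strand in build GRCm38.p6, with motif matches on either strand in capitals. They are the windows of H2-Aa (chr17:34287774-34288073, minus strand), H2-Eb1 (chr17:34305617-34305916, plus strand) and Cxcl10 (chr5:92348840-92349139, minus strand).
H2-Aa: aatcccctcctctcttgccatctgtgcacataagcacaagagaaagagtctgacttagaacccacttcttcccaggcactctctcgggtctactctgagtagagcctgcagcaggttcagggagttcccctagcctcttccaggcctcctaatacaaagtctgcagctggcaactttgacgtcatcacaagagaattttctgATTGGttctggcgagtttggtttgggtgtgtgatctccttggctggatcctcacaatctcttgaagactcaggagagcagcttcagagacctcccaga
H2-Eb1: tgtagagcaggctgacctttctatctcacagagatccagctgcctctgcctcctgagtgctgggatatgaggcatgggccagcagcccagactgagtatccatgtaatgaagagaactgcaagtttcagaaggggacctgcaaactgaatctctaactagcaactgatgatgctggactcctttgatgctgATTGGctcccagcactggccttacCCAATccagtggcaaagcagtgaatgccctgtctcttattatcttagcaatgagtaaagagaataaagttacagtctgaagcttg
Cxcl10: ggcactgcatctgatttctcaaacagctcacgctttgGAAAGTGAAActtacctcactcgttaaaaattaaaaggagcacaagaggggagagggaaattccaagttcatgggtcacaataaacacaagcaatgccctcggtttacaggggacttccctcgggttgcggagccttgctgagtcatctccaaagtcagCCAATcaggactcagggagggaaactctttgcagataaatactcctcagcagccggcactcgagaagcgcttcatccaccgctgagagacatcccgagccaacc
The H2-Aa window holds a CCAAT match that begins 48 bases before the start, H2-Eb1 holds matches at 59 and 35 bases, and Cxcl10 holds 1 at 54 bases and a match to the spaced GAAA repeat at 213 bases. CCAAT was found in the window of 38.1% of the 42 lower genes that had one, of 31% of 29 higher genes, of 33.7% of 407 panel genes and of 41.1% of all 27025 genes of the promoter table. The GAAA repeat was found in 7.14%, 10.3%, 7.62% and 3.99%, and TTCNNNGAA, the palindrome bound by STAT proteins, in 19%, 20.7%, 15.2% and 9.55%. These shares describe the letters only. No window was listed for H2-Ab1, Ciita, Cd74, Nos2 and Bst1.

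Genes of the interferon gamma pathway moved in both directions. Interferon gamma, made by activated T cells and natural killer cells, signals through a receptor of IFNGR1 and IFNGR2 and induces Irf1, Ciita and the chemokines that attract CXCR3-bearing T cells. Of 18 measured genes 7 were called lower and 3 higher, against 11.2% lower and 7.31% higher over the panel. The list median was -0.36, and after centring each mouse on its median 4 were lower and 3 higher. Both receptor chains rose. Ifngr2 ranged from 11.11 to 12.00 (median 11.66) in Control and from 12.13 to 12.97 (median 12.47) in PAT1, with no overlap, and its log2 fold change was 0.96 (SE 0.19, adjusted p = 0.000614). Ifngr1 rose by 0.57 (SE 0.16, adjusted p = 0.0137), and 6 of 7 PAT1 mice were above the Control range. The cytokine itself was near the detection limit, with a median count of 10 in Control and 8 in PAT1, and Ifng had a log2 fold change of -0.15 (SE 0.26, adjusted p = 0.732).

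Downstream of the receptor, the transcription factors Irf1 (-0.66, adjusted p = 0.00371), Tbx21 (-0.65, adjusted p = 0.00422) and Irf8 (-0.52, adjusted p = 0.00489) fell, each in 7 of 7 mice. After centring, their adjusted p was 0.0527, 0.0659 and 0.0747. Tbx21 encodes T-bet, the factor that defines Th1 cells, and Irf8 acts in dendritic cells and B cells. Cd274, which encodes the checkpoint ligand PD-L1, lay at 7.16 to 8.89 (median 7.77) and 5.72 to 7.52 (median 6.61), with 6 PAT1 mice below the Control range. Its log2 fold change was -1.33 (SE 0.25, adjusted p = 0.000440).

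Transcripts of the 3 CXCR3 ligand genes did not move together, and their proteins were not measured. Cxcl9 ranged from 8.02 to 9.11 (median 8.63) in Control and from 6.48 to 8.50 (median 7.09) in PAT1, where replicate 2 alone was inside the Control range. It fell by 1.34 on the log2 scale (SE 0.27, adjusted p = 0.000865), and Cxcl10 fell by 0.78 (SE 0.20, adjusted p = 0.00502). Cxcl11 went the other way, from 4.08 to 5.46 (median 4.56) in Control to 5.40 to 6.19 (median 5.90) in PAT1, a log2 fold change of 1.20 (SE 0.19, adjusted p = 0.000155). All PAT1 mice but replicate 1 were above the highest Control mouse for Cxcl11. These 3 signs were the same under all alternatives.

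The class I pathway displays peptides to CD8 T cells. Of 9 genes of the proteasome and peptide transport 2 fell, Tap1 (-0.80, SE 0.19, adjusted p = 0.00409), a chain of the peptide transporter, and Psmb9 (-0.70, SE 0.22, adjusted p = 0.0249), an immunoproteasome subunit. The call of Psmb9 was lost under 7 alternatives that used both sexes. Of 6 class I genes none fell and 1 rose, the non-classical H2-Q10 (0.69, SE 0.21, adjusted p = 0.0203), whose call was lost under 5 alternatives that used both sexes. Against 11.2% lower and 7.31% higher over the panel, these counts do not set the class I pathway apart. The classical heavy chain H2-K1 had a log2 fold change of 0.23 (adjusted p = 0.462) and the light chain B2m of 0.18 (adjusted p = 0.535).

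**Figure D3:**
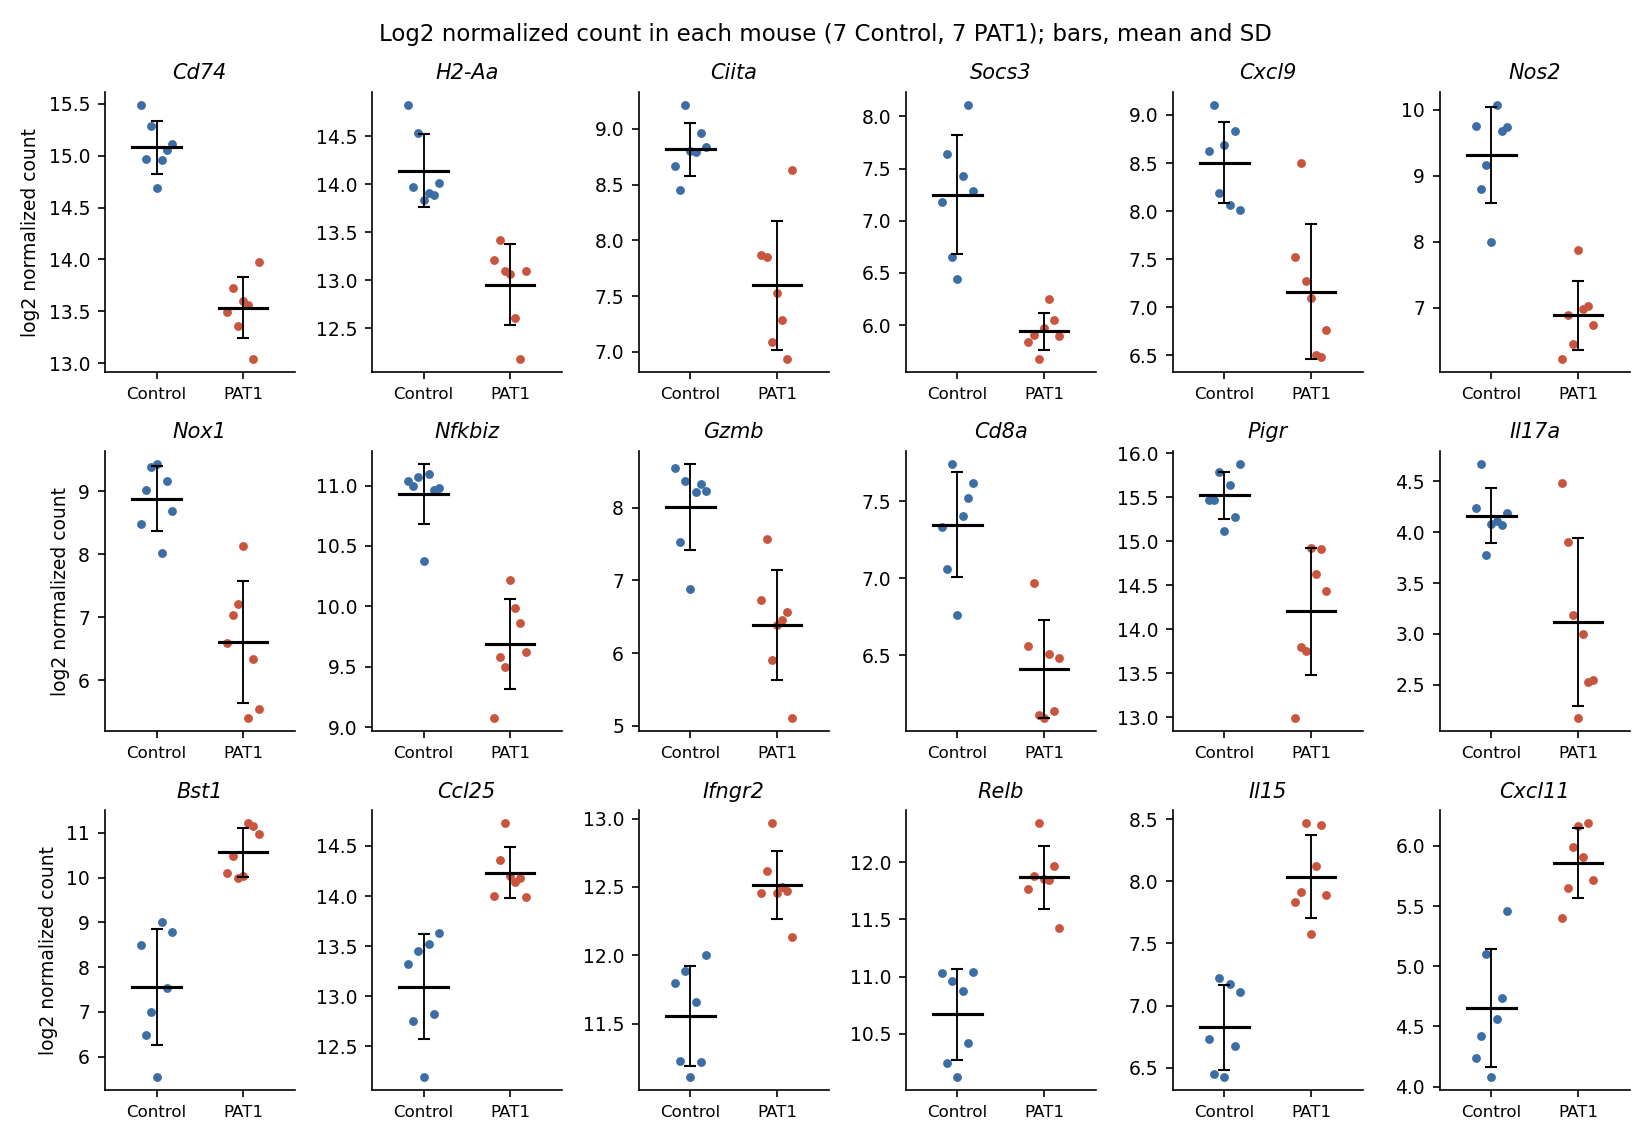
Log2 normalized counts (vertical axes, each with its own range) of 18 genes in 7 Control and 7 PAT1 mice, 1 point a mouse, with lines at the mean and bars of 1 SD. Cd74, H2-Aa, Socs3, Nos2, Nfkbiz, Pigr, Bst1, Ccl25, Ifngr2, Relb and Il15 separate the groups fully, and in the other genes 1 or 2 PAT1 mice lie inside the Control range.

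The largest falls of the panel were those of enzymes that make reactive nitrogen and oxygen species. Nos2, the inducible nitric oxide synthase, ranged from 7.99 to 10.07 (median 9.67) in Control and from 6.22 to 7.88 (median 6.89) in PAT1. In recovered counts the medians were 668 and 127. All PAT1 mice were below all Control mice, and the fall was 5.39-fold (log2 fold change -2.43, SE 0.29, adjusted p = 2.26e-06). Nox1, a superoxide-generating oxidase of the intestinal epithelium, ranged from 8.01 to 9.44 (median 9.02) and from 5.39 to 8.13 (median 6.60). PAT1 replicate 4 was the only PAT1 mouse within the Control range, and the log2 fold change was -2.28 (SE 0.41, adjusted p = 0.000344), a 4.85-fold fall. The other 4 measured genes of this list were not called. Nos2 and Nox1 were among the 10 genes called under every alternative, single sexes included, together with Ccl8, Cd274, H2-Aa, H2-Ab1, H2-DMa, Nfkbiz, Socs3 and Tnfsf15.

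Of 20 pattern recognition genes 4 were called, against 18.5% of the panel, and each of the 4 was lower in 7 of 7 mice. Tlr2, which recognizes bacterial lipoproteins, fell by 1.18 on the log2 scale (SE 0.21, adjusted p = 0.000355) from a Control range of 5.41 to 6.64 to a PAT1 range of 4.46 to 5.56. Its partner Tlr1 fell by 0.86 (SE 0.17, adjusted p = 0.000558) without overlap, from 8.23 to 8.82 in Control to 7.17 to 8.19 in PAT1. Nod2, the sensor of muramyl dipeptide, had a log2 fold change of -0.63 (SE 0.15, adjusted p = 0.00359), and Tlr4, the receptor of lipopolysaccharide, of -0.59 (SE 0.15, adjusted p = 0.00496, and 0.0567 after centring). The list median was 0.03.

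Nfkbiz, which encodes an inducible nuclear IkB protein that acts downstream of Toll-like receptors and IL-17, ranged from 10.38 to 11.10 (median 10.99) in Control and from 9.07 to 10.22 (median 9.62) in PAT1. Socs3, the feedback inhibitor of STAT3, ranged from 6.45 to 8.11 (median 7.29) and from 5.67 to 6.25 (median 5.90). Neither gene overlapped between the groups. The log2 fold changes were -1.24 (SE 0.18, adjusted p = 2.85e-05) for Nfkbiz and -1.31 (SE 0.22, adjusted p = 0.000203) for Socs3. Among other kinases and regulators of cytokine signalling, Jak3 fell by 0.88 (adjusted p = 0.0153), and by 0.46 (adjusted p = 0.0739) without the 2 shallowest PAT1 mice. By the methods' test its adjusted p was 0.0663. Socs1, an inhibitor of these kinases, had a log2 fold change of -0.54 (adjusted p = 0.0512). Hif1a, the oxygen-regulated transcription factor, fell by 0.83 (SE 0.19, adjusted p = 0.00326) without overlap, and Il1b, a myeloid cytokine, by 0.74 (adjusted p = 0.0172). The call of Il1b was lost under 5 alternatives that used both sexes.

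Granzymes A and B are serine proteases stored in the granules of CD8 T cells, intraepithelial lymphocytes and natural killer cells. Of 12 measured genes of cytotoxic granules and effectors 4 were called, all lower, against 11.2% lower over the panel. Gzmb ranged from 6.88 to 8.54 (median 8.23) in Control and from 5.10 to 7.57 (median 6.46) in PAT1, and Gzma from 9.53 to 11.0045 (median 10.80) and from 7.46 to 10.22 (median 9.24). The ranges overlapped for both, with 6 and 5 PAT1 mice below every Control mouse. Gzmb fell 3.08-fold (log2 fold change -1.62, SE 0.34, adjusted p = 0.00117) and Gzma 2.88-fold (-1.52, SE 0.40, adjusted p = 0.00791). Ccl5, a chemokine released by cytotoxic cells, fell by 1.32 (SE 0.34, adjusted p = 0.00568), and Xcl1, which attracts cross-presenting dendritic cells, by 0.70 (SE 0.21, adjusted p = 0.0189, and 0.0813 after centring).

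T cell receptor and coreceptor genes gave 5 falls and 0 rises among 25 measured, with a median of -0.22, against 11.2% lower and 7.31% higher over the panel. Cd3e, a signalling chain of the receptor, ranged from 6.80 to 7.48 (median 7.26) in Control and from 5.97 to 6.83 (median 6.30) in PAT1. Only the highest PAT1 mouse reached the lowest Control mouse, and the log2 fold change was -0.90 (SE 0.16, adjusted p = 0.000355). Cd8a, the coreceptor of class I-restricted T cells, fell by 0.94 (SE 0.24, adjusted p = 0.00571). The surface proteins Cd7 (-1.12, SE 0.24, adjusted p = 0.00162) and Cd6 (-0.84, SE 0.18, adjusted p = 0.00172) separated the groups fully. Ptpn22, a phosphatase that restrains receptor signalling, fell by 0.72 (adjusted p = 0.00746). Cd3d and Lck, the kinase that starts receptor signalling, were not called (-0.40, adjusted p = 0.261, and -0.38, adjusted p = 0.152). Without the 4 mice rich in B cell markers 7 genes of the list were called, all lower. The T cell marker mean, given above, was lower in every PAT1 mouse on the deposited scaling, with 2 of its 4 genes called. Its part in these falls and in those of the granzymes was not tested.

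Of 21 natural killer receptor genes 1 was called, against 18.5% of the panel. The called gene was Klrd1, the CD94 chain (-0.72, SE 0.16, adjusted p = 0.00281, no overlap). Runx3, a factor of CD8 and intraepithelial lymphocytes (-0.62, adjusted p = 0.0137, and 0.0659 after centring), Spn, the leukocyte surface sialoglycoprotein CD43 (-0.67, adjusted p = 0.0120), and Cxcr6, a homing receptor of tissue lymphocytes (-0.61, adjusted p = 0.00502), were also lower. Among 17 costimulatory and checkpoint genes 4 fell, Cd274 included, and 1 rose, against 18.5% called over the panel. Ctla4, the inhibitory receptor of activated and regulatory T cells, ranged from 5.46 to 6.16 in Control and from 4.14 to 5.32 in PAT1 and fell by 0.97 (SE 0.21, adjusted p = 0.00203). Tigit, an inhibitory receptor of T and natural killer cells, fell by 1.09 (SE 0.21, adjusted p = 0.000540), and Tnfrsf9, the costimulator 4-1BB, by 0.64 (adjusted p = 0.0495), a call lost under 19 alternatives that used both sexes. The rise was that of Icosl, the ligand of ICOS, which ranged from 7.67 to 7.99 in Control and from 8.04 to 8.93 in PAT1 (log2 fold change 0.55, SE 0.13, adjusted p = 0.00326).

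Genes of regulatory T cells and IL-10 gave 2 falls and 2 rises among 11, against 11.2% lower and 7.31% higher over the panel. The rises were those of Il10rb and of Nt5e, described below. Beside Ctla4, Ikzf2, which encodes Helios, fell by 0.78 (adjusted p = 0.0187, and 0.0666 after centring). Il10rb, a shared chain of the IL-10 and IL-22 receptors, rose by 0.71 (SE 0.16, adjusted p = 0.00247) with no overlap, from 10.57 to 11.13 in Control to 11.22 to 11.98 in PAT1. Foxp3, the defining factor of regulatory T cells, was counted at medians of 15 and 9 and was not called (-0.37, SE 0.28, adjusted p = 0.405). The lineage factor of Th2 cells, Gata3, was not called either (0.23, adjusted p = 0.210).

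The type 3 cytokines, by which lymphocytes act on the epithelium and against extracellular bacteria, were scarce. Il17a had a median count of 19 in Control and 8 in PAT1. Its log2 values ranged from 3.78 to 4.67 (median 4.11) and from 2.17 to 4.48 (median 2.998), and 5 PAT1 mice lay below every Control mouse. The log2 fold change was -1.05 (SE 0.27, adjusted p = 0.00567, lower in 6 of 7 mice). Il17f (-0.99, SE 0.50, adjusted p = 0.194) and Il22 (-1.30, SE 0.48, adjusted p = 0.0578), at PAT1 medians of 5 and 3 counts, were not called. Of 20 genes of the list 3 were called lower and 1 higher, against 11.2% lower and 7.31% higher over the panel. Nfkbiz, Il17a and Batf, a factor needed for Th17 cells (-0.65, adjusted p = 0.0342), were lower, and the IL-25 receptor chain Il17rb was higher (0.53, SE 0.13, adjusted p = 0.00501). The call of Batf was lost under 15 alternatives that used both sexes.

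Secretory IgA is made by plasma cells in the lamina propria and carried across enterocytes by the polymeric immunoglobulin receptor. Pigr, which encodes that receptor, ranged from 15.12 to 15.88 (median 15.47) in Control and from 12.98 to 14.93 (median 14.44) in PAT1. No PAT1 mouse overlapped with Control, and the lowest was replicate 1, the shallowest. The fall was 2.49-fold (log2 fold change -1.32, SE 0.31, adjusted p = 0.00321), and without the 2 shallowest PAT1 mice the log2 fold change was -0.98 (adjusted p = 0.0212). On the side of the plasma cell, Tnfrsf17, the survival receptor BCMA, fell by 0.88 (SE 0.21, adjusted p = 0.00359) and Ccr10, a homing receptor of IgA plasma cells, by 0.77 (SE 0.25, adjusted p = 0.0295). Without the 4 mice rich in B cell markers Ccr10 had a log2 fold change of -0.30 (adjusted p = 0.525). Its call was lost under 10 alternatives that used both sexes. Prdm1, which drives plasma cell differentiation, had a log2 fold change of -0.71 (SE 0.25, adjusted p = 0.0525). The other 8 of 12 genes were not called. Fcamr, a receptor for IgA and IgM that was in no list, rose by 1.22 (adjusted p = 0.0150), from counts with medians of 14 and 17, and by 0.64 (adjusted p = 0.200) without the mice rich in B cell markers.

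Epithelial genes went in both directions. Of 14 measured genes of enterocytes and goblet cells 4 rose (Ccl25, Btnl1, Tnfsf15 and Mme) and 2 fell (Pigr and Ceacam1). Over the panel 7.31% were higher and 11.2% lower. The list median was 0.43, and by the methods' test 2 rose and 2 fell. Ccl25, the small intestinal chemokine that recruits CCR9-bearing lymphocytes, ranged from 12.19 to 13.63 (median 13.32) in Control and from 13.99 to 14.73 (median 14.18) in PAT1. The groups did not overlap, and it rose 2.20-fold (log2 fold change 1.13, SE 0.20, adjusted p = 0.000343). Btnl1, a butyrophilin-like protein of enterocytes that maintains gamma delta intraepithelial lymphocytes, rose by 0.94 (SE 0.29, adjusted p = 0.0194; 0.0827 by the methods' test) and Tnfsf15, the cytokine TL1A, by 0.96 (SE 0.18, adjusted p = 0.000369), the latter with no overlap. In contrast, the adhesion molecule Ceacam1 ranged from 14.59 to 15.20 (median 14.98) in Control and from 12.56 to 14.24 (median 13.68) in PAT1 and fell 2.39-fold (-1.26, SE 0.29, adjusted p = 0.00287), again with no overlap. Under quantile normalization the fall of Ceacam1 was 0.46 on the log2 scale (adjusted p = 0.158). Il18 (-0.69, adjusted p = 0.0525), Abcb1a, a drug efflux pump (0.77, adjusted p = 0.152), and Itln1 (0.51, adjusted p = 0.102) were not called.

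The largest called rises were those of Bst1 and Mme, which encode ectoenzymes, enzymes that act on substrates outside the cell. Of 5 measured ectoenzyme genes 3 were called higher, against 7.31% higher over the panel. Bst1 encodes CD157, a surface enzyme that consumes NAD. It ranged from 5.54 to 8.9997 (median 7.53) in Control and from 9.9955 to 11.23 (median 10.49) in PAT1, so that the lowest PAT1 mouse was above the highest Control mouse. Median counts were 209 and 1172, and the rise was 8.12-fold (log2 fold change 3.02, SE 0.55, adjusted p = 0.000356). Mme, which encodes neprilysin, a peptidase of the brush border, ranged from 5.95 to 9.98 (median 8.79) and from 9.34 to 10.96 (median 10.35), with 6 PAT1 mice above every Control mouse. Its log2 fold change was 1.90 (SE 0.56, adjusted p = 0.0153; 0.0781 by the methods' test). Nt5e, the adenosine-forming enzyme CD73, rose by 1.03 (SE 0.27, adjusted p = 0.00782).

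In Control mice the level of Bst1 and Mme spanned over 3 units of log2, and the lowest value of both was that of replicate 4, which also had the lowest enterocyte marker mean. With the enterocyte marker mean as a covariate the log2 fold changes were 2.47 (adjusted p = 0.000256) for Bst1, 1.18 (adjusted p = 0.00569) for Mme, 0.83 (adjusted p = 0.0184) for Nt5e, 0.96 (adjusted p = 0.000210) for Ccl25, -1.59 (adjusted p = 0.000139) for Pigr and -1.62 (adjusted p = 2e-07) for Ceacam1. Of the 5 genes in that mean 3 were themselves called, Ccl25 and Btnl1 higher and Ceacam1 lower. The mean therefore does not measure enterocyte content apart from the treatment, and values with it say little about that content for any gene. Bst1, Mme, Nt5e and Pigr, which it does not contain, were called with the covariate in the same direction. The part of enterocyte content in their changes was not tested. Tfrc, the transferrin receptor, which is abundant in dividing epithelium, fell by 0.93 (SE 0.28, adjusted p = 0.0161), with every PAT1 mouse (9.87 to 11.69) below every Control mouse (11.84 to 12.36). Its call was lost after centring (adjusted p = 0.0509), by the methods' test (0.0707) and without the 2 shallowest PAT1 mice (log2 fold change -0.70, adjusted p = 0.0698), and the log2 fold change was -0.52 (adjusted p = 0.0295) with the total count as a covariate.

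**Figure D4:**
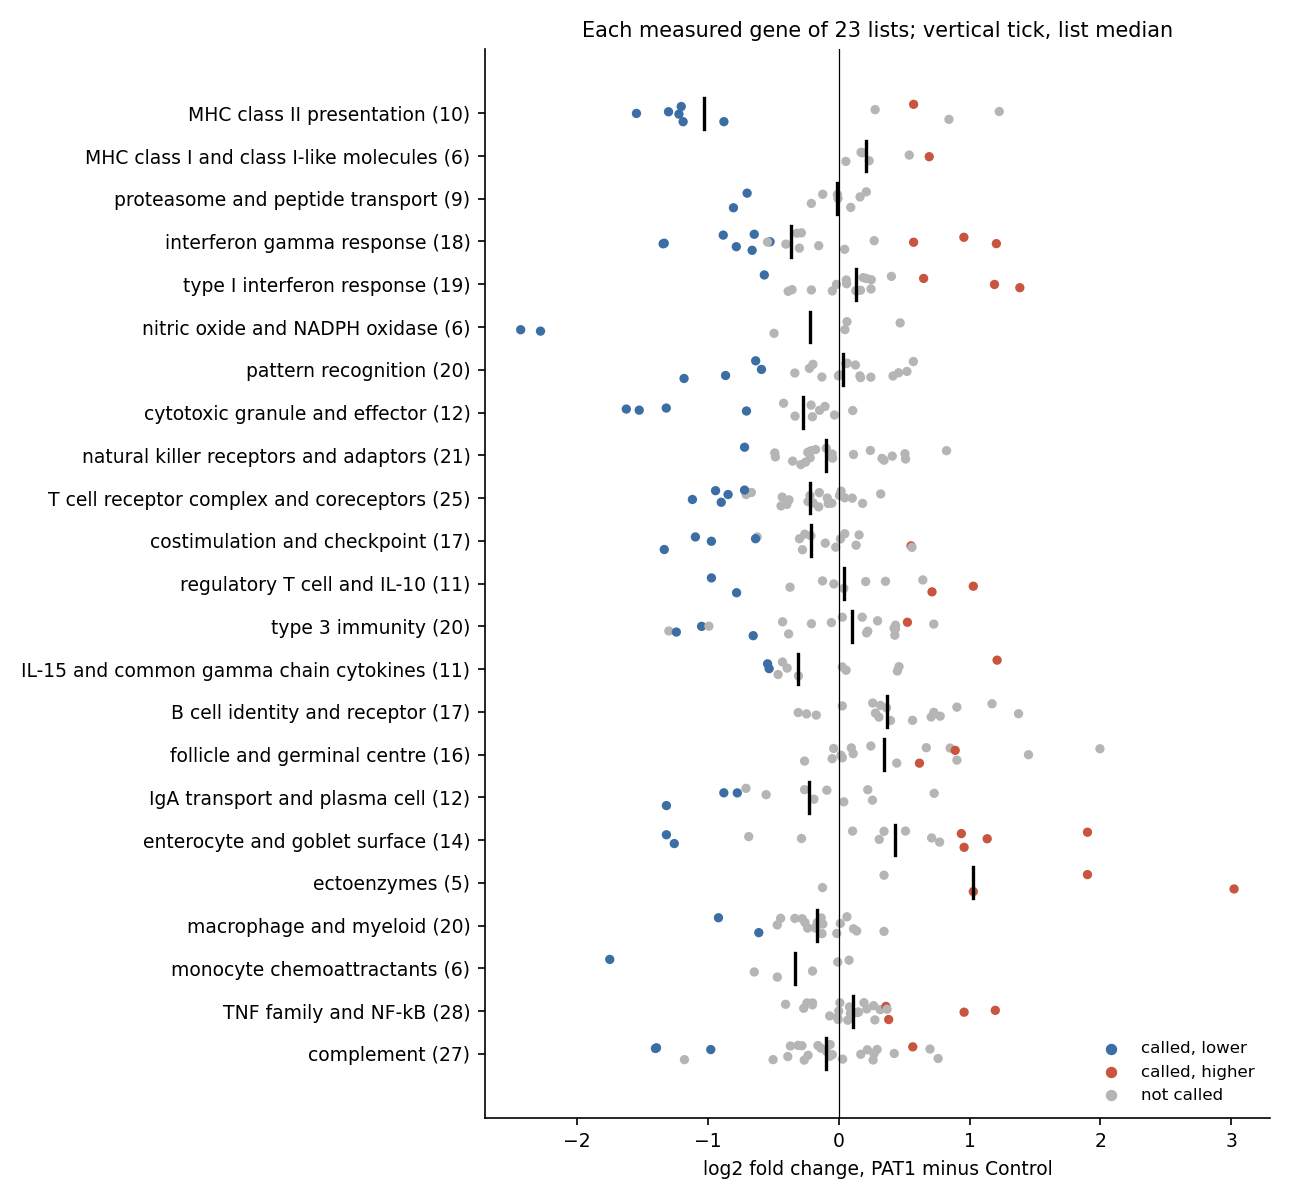
Log2 fold change in PAT1 minus Control (horizontal axis) of every measured gene of 23 lists, with the number measured in parentheses, points coloured by call and a tick at the list median. MHC class II has 6 of 10 genes called lower, the B cell list has none of 17 called, and interferon gamma and epithelial genes have calls on both sides of 0.

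IL-15, a cytokine of epithelial and myeloid cells that sustains CD8 and intraepithelial lymphocytes, rose. Il15 ranged from 6.42 to 7.22 (median 6.73) in Control and from 7.57 to 8.47 (median 7.91) in PAT1. The groups did not overlap, and the log2 fold change was 1.21 (SE 0.23, adjusted p = 0.000534). Il2rb, the receptor chain through which IL-15 signals, fell by 0.53 (SE 0.15, adjusted p = 0.0150), and Il7, another cytokine of the family, fell by 0.54 (SE 0.15, adjusted p = 0.00902). Both falls lost their calls after centring (adjusted p = 0.0836 for Il2rb and 0.111 for Il7) and under quantile normalization (0.0593 and 0.114). The other 8 of 11 genes of this list were not called.

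Of 19 measured genes of the type I interferon response 3 rose and 1 fell, against 7.31% higher and 11.2% lower over the panel. The list median was 0.14, and by the methods' test 0 rose and 1 fell. Irf7, the factor that amplifies type I interferon, ranged from 7.80 to 9.09 (median 8.81) in Control and from 9.06 to 11.39 (median 9.76) in PAT1. The ends of the ranges touched, with 6 PAT1 mice above Control, and the highest values were those of replicates 1 and 2. Its log2 fold change was 1.38 (SE 0.41, adjusted p = 0.0153; 0.0760 by the methods' test). Ifna1 (1.19, adjusted p = 0.0211), at median counts of 7 and 8, and Ifi35 (0.65, adjusted p = 0.0495) rose with less certainty and lost their calls under 7 and 16 alternatives that used both sexes. Tmem173, which encodes STING, a sensor of the response to cytosolic DNA, fell by 0.57 (SE 0.14, adjusted p = 0.00371) with no overlap.

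Relb, a subunit of the alternative NF-kB pathway, ranged from 10.12 to 11.04 (median 10.87) in Control and from 11.42 to 12.34 (median 11.85) in PAT1. It rose 2.29-fold (log2 fold change 1.20, SE 0.21, adjusted p = 0.000310) with no overlap. Of 28 genes of the TNF family and NF-kB 4 were called, all higher, against 7.31% higher over the panel. The others were the adaptors Traf4 (0.38, adjusted p = 0.0150, no overlap) and Traf2 (0.36, adjusted p = 0.0283), beside Tnfsf15. The call of Traf2 was lost under 8 alternatives that used both sexes.

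Some B cell genes varied widely among PAT1 mice. The SD of Ms4a1, which encodes CD20, was 2.83 in PAT1 and 1.40 in Control. The SD of Pax5, a factor of B cell identity, was 2.15 in PAT1 and 1.17 in Control. Ms4a1 values were 10.65, 9.47 and 8.78 in PAT1 replicates 7, 2 and 4 and between 3.65 and 5.63 in the other PAT1 mice, against 4.24 to 7.83 in Control. None of the 17 B cell genes was called, against 18.5% of the panel. Log2 fold changes were 1.37 (adjusted p = 0.320) for Ms4a1, 1.17 (adjusted p = 0.287) for Pax5 and 0.90 (adjusted p = 0.297) for Cr2, a complement receptor of follicles. The list median was 0.37, and -0.20 with 2 genes called lower without the 4 mice rich in B cell markers.

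Of 16 follicle and germinal centre genes 2 were called higher, against 7.31% higher over the panel. They were Cd83, an activation marker of dendritic cells and B cells (0.62, SE 0.16, adjusted p = 0.00624), and the lymphoid tissue cytokine Lta (0.89, SE 0.30, adjusted p = 0.0381). The follicle homing receptor Cxcr5 (1.45, SE 0.58, adjusted p = 0.0822) was not called. Without the 4 mice rich in B cell markers Cd83 had a log2 fold change of 0.38 (adjusted p = 0.135), Lta of 0.46 (adjusted p = 0.276) and Gpr183, a migration receptor of B cells that was in no list, of 0.48 (adjusted p = 0.253) instead of 0.71 (adjusted p = 0.0324). The calls of Lta and Gpr183 were each lost under 12 alternatives that used both sexes. The part of follicle content in the rises of Cd83, Lta and Gpr183 was not tested further.

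Ccl8, a chemokine for monocytes made by resident macrophages, ranged from 7.57 to 9.65 (median 8.64) in Control and from 5.78 to 8.69 (median 6.63) in PAT1. PAT1 replicates 1 and 2 lay within the Control range and the other 5 mice below it, and the fall was 3.36-fold (log2 fold change -1.75, SE 0.39, adjusted p = 0.00261). It was the 1 called gene of 6 in its list, where Ccl2 had a log2 fold change of -0.64 (adjusted p = 0.0525). Of 20 macrophage and myeloid genes 2 fell, against 11.2% over the panel, the integrin chain Itgam (-0.92, SE 0.19, adjusted p = 0.000865) and the scavenger receptor Msr1 (-0.61, SE 0.15, adjusted p = 0.00516, no overlap). Of 12 genes of neutrophils, mast cells and eosinophils none was called, against 18.5% of the panel. Of these 12 genes 10 had a mean log2 under 5, where low counts limit what can be called.

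Ccl22 and its receptor Ccr4, which guide regulatory and Th2 cells, both fell. Ccl22 ranged from 6.18 to 7.85 in Control and from 5.11 to 6.69 in PAT1 (log2 fold change -0.997, SE 0.24, adjusted p = 0.00433), and Ccr4 from 3.40 to 4.47 and from 1.86 to 3.30 (-1.09, SE 0.31, adjusted p = 0.0124), at median counts of 16 and 7. The call of Ccr4 was lost under 3 alternatives that used both sexes. Ccl11, or eotaxin, the chemokine of eosinophils, rose by 0.77 (SE 0.21, adjusted p = 0.00902), and Ccl6 by 0.42 (adjusted p = 0.0393), a call lost under 13 alternatives that used both sexes. In all, 3 of 17 other chemokine genes fell and 2 rose, against 11.2% lower and 7.31% higher over the panel.

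Complement genes gave 3 falls and 1 rise among 27, against 18.5% called over the panel. Cfi, the protease that inactivates C3b, ranged from 5.45 to 7.34 (median 6.60) in Control and from 4.31 to 5.99 (median 5.11) in PAT1, with 6 PAT1 mice below the Control range. It fell by 1.39 (SE 0.30, adjusted p = 0.00165). C4a fell by 0.98 (SE 0.22, adjusted p = 0.00287), and Mbl2, a lectin that starts the cascade, by 1.40 (adjusted p = 0.0125) at median counts of 11 and 3. Factor B, Cfb, rose by 0.57 (adjusted p = 0.0437), a call lost under 14 alternatives that used both sexes. Cfd, or adipsin, a product of fat cells, had the widest spread of all genes in PAT1, with an SD of 2.83 where Control had 2.25, but it was not called (-1.18, SE 1.12, adjusted p = 0.515).

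Among the remaining lists, apoptosis genes gave 2 rises in 14 and TGF-beta genes 2 rises in 8, against 7.31% higher over the panel. The apoptosis genes were Bax (0.58, SE 0.17, adjusted p = 0.0137, no overlap) and Bid (0.75, SE 0.17, adjusted p = 0.00287), both of which permeabilize mitochondria. The TGF-beta genes were Smad5 (0.45, adjusted p = 0.0393) and Tgfbi (0.56, adjusted p = 0.0387), with calls lost under 14 and 10 alternatives that used both sexes. Adhesion genes gave 1 fall, Itgam, and 1 rise, the tetraspanin Cd82 (0.65, adjusted p = 0.0472), in 24, and the call of Cd82 was lost under 12 such alternatives. The stroma list (13 genes) and the autophagy list (2 genes) held no call, against 18.5% called over the panel. The type 2 list (15 genes) held only Ccl11, and the IL-1 family (13 genes) only Il1b. Called genes in no list that are not yet named were the adaptor Cradd (0.59, SE 0.11, adjusted p = 0.000558, no overlap), Cd99 (0.72, adjusted p = 0.00287, no overlap), Pdcd2 (0.48, adjusted p = 0.0102, no overlap), the phosphatase Ptpn6 (0.49, adjusted p = 0.0120), Clec4a4 (0.91, adjusted p = 0.00496), Ctsg (0.95, adjusted p = 0.0184) and Gm10499 (0.79, adjusted p = 0.0479). The calls of Ctsg and Gm10499 were lost under 6 and 12 alternatives that used both sexes.

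Individual mice differed in how many of the 101 genes they shifted. Since these genes were called on the same mice, the following is a description. PAT1 replicate 4 had 7 of the 101 inside the Control range and replicate 3 had 9, whereas replicate 2 had 19 and replicate 1, the shallowest, had 29. The other 3 PAT1 mice had 13 to 16. No PAT1 mouse had fewer than 74 of the 101 on the PAT1 side of the midpoint between the group means, and no Control mouse had more than 14.

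Whether the effect of the course differed between sexes was tested as the PAT1 minus Control change in females minus that in males. Of 547 genes 0 were called (0%), 47 had an unadjusted p under 0.05, and the smallest adjusted p was 0.455. With 3 females and 4 males a group, this does not show that the sexes responded alike. In males alone Nos2 had a log2 fold change of -2.07 and in females alone of -2.91, and for Bst1 these were 3.28 and 2.68. Each of the 101 called genes had the same sign in both sexes.

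Compared with PAT3, 23 genes (4.2%) were called in PAT1, 15 higher and 8 lower, while the methods' test called 0 and 156 genes had an unadjusted p under 0.05. Among the genes higher in PAT1 than in PAT3 the largest differences were those of Cd79b (1.57), Tnfrsf13c (1.47) and Ltb (1.17), each at adjusted p = 0.0401. Cd79b and Tnfrsf13c belong to the B cell list and Ltb to the follicle list. Cd3d (0.88, SE 0.21), Lck (0.71, SE 0.16), Cd8a (0.90, SE 0.22) and Klrd1 (0.53, SE 0.15) were also higher. The adjusted p was 0.0401 for Cd3d, Lck and Cd8a and 0.0419 for Klrd1. H2-DMa was also higher in PAT1 than in PAT3, by 0.55 (adjusted p = 0.0401). Tlr4 was lower in PAT1 than in PAT3, by a log2 difference of -0.48 (adjusted p = 0.0401). Without PAT1 replicate 1, 2, 4 or 7 the count was 0, and without replicate 6 it was 86, so the contrast rested on single mice. Replicates 2, 4 and 7 were the PAT1 mice rich in B cell markers, and the part of follicle content in this contrast was not tested.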

How the data were processed

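RNA from terminal ileum was counted on the nCounter GX mouse immunology panel. The authors normalized the counts with DESeq2, took log2 and deposited these log2 values for 547 genes in 24 samples. Background subtraction is not given in the sources used here. Every deposited log2 value corresponded to a whole count within 0.01 counts, so counts and depth could be recovered. A count of 0 was listed as 0, which occurred for 14 values of the 14 Control and PAT1 samples.

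Groups came from the treatment label. The study's figure legend for these profiles gives other sizes for the PAT1 and PAT3 groups, and the labels were used. Replicate numbers follow sample order and pair nothing. The deposited log2 values were fitted without a filter or added constant in limma (version 3.58.1, R 4.3.3) over all 3 groups, which share 1 estimate of the spread, and PAT1 minus Control was tested with the Benjamini-Hochberg adjustment over 547 genes at 0.05. Totals were compared by exact permutation. On simulated data for this contrast with 547 genes, log2 changes of 0.5, 1, 2 and 3 were recovered in 38%, 82%, 96% and 98% of 50 genes each, and 1.73% of 347 unchanged genes were called. No 2 samples were duplicates.

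Named genes were the 15 largest called rises and falls with a mean log2 of at least 5, every called list member, called genes in no list, up to 3 uncalled genes with the largest changes per list, cytokines and factors matching cells that the study measured, the 5 largest SDs in PAT1, and up to 10 genes of the PAT3 contrast. Members and lists were chosen with earlier results of these data known. Alternatives covered normalization, covariates, test, filter, sex and each left-out sample, and 2 sample sets were added after the data were seen. Gene symbols are those of the table, of which 531 are current, 14 are older names and 2 were unmatched. Promoter windows came from RefSeq. Some genes of the panel are not reported here.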

Additional observations from a re-analysis of the deposited data

Results flagged for a closer look

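Of 248 groups of 7 values examined, 14 held a single mouse far from its group, by Dixon's test at the 95% level. Chance gives about 1 in 20 such groups. Among PAT1 mice these were the log2 values of Btnl1 (11.44) and Cfb (8.97) in replicate 1, H2-Ab1 (11.87) and Tigit (3.75) in replicate 6, which were low, and Pdcd2 (7.45) in replicate 3 and Itln1 (16.57) in replicate 4, which were high. Among Control mice, Tnfsf15 (4.47) in replicate 2, Gzma (9.53) and Nfkbiz (10.38) in replicate 4 and Cfd (5.64) in replicate 7 were low. Smad5 (10.07) in replicate 3, Ccr4 (4.47) and Hif1a (10.39) in replicate 6 and Tfrc (12.36) in replicate 7 were high.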

How the results depend on the processing

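The 101 calls in PAT1 against Control rose to 155, 74 of them higher, with the log2 total count as a covariate. In males alone 57 genes were called (23 higher, 34 lower) and in females alone 23 (2 higher, 21 lower), where fewer mice were fitted. The methods' test called 73 genes, 23 higher and 50 lower. Leaving out 1 mouse gave 88 to 117 calls, with 30 to 49 higher and 58 to 70 lower, and 80 genes were called each time. The remaining alternatives gave 94 to 136 calls. Genes without overlap numbered 16 after centring and 28 under quantile normalization. With 1 mouse left out they numbered 35 to 49. Leaving out a mouse can only narrow a range, so this count cannot fall below the 34 of all mice and does not measure stability. The PAT3 contrast gave 57 calls after centring, 37 without low genes and 0 to 86 with 1 PAT1 mouse left out. The sex contrast gave 0 to 1. The sign turned for 7 of the uncalled genes named. Without the 4 mice rich in B cell markers these were Cfd (1.07), Cr2 (-0.20), H2-DMb2 (-0.11), Ms4a1 (-0.38) and Pax5 (-0.13). In females alone B2m (-0.12) and Cfd (0.21) turned, and in males alone Ifng (0.082). The cause was not tested. No paired analysis was possible because replicate numbers follow sample order. Depth limits genes of few counts: 148 genes had a mean log2 under 5, of which 5 were called higher and 6 lower.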
